A study of Saccharomyces cerevisiae with 8 samples.

Results

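The loci described here are the pericentromeric replication origins of budding yeast, taken as the binding events of the origin recognition complex (ORC) and of the MCM2-7 helicase that lay within 30 kb of a centromere. Of 9293 events in 6 lists, 1017 (10.9%) met this limit. Events of any list that lay no more than 500 bp from the next were joined into a locus, which gave 352 loci, 39 of them (11.1%) within 30 kb of a centromere. The members were chosen by position alone. No locus straddled the limit. The last loci inside it were ARS1622.7 at 28.4 kb and ARS603.5 at 29.9 kb, and the first outside were ARS417 at 34.2 kb and ARS306 at 39.9 kb.

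The events came from ChIP-Exo, in which lambda exonuclease digests precipitated DNA back to the point where the tagged protein is cross-linked, and the sequenced ends therefore lie at the edges of the protein's contact with DNA. FLAG-tagged Mcm4, a subunit of MCM2-7, was precipitated from strain YC779 arrested in G1-phase with the mating pheromone alpha-factor. FLAG-tagged Orc2, a subunit of ORC, was precipitated from strain YC795 in the same G1 arrest and in G2-phase after nocodazole, a drug that depolymerises microtubules. All strains were W303, the antibody was anti-Flag, and each of the 3 conditions had 2 biological replicates with 1 list each. Orc2 in S-phase, 24 min after release, was not analysed here. Cell cycle phase and arresting drug cannot be told apart in the ORC comparison, and Mcm4 and Orc2 came from different strains. The depth of each list is unknown, because read counts are not among its values and the paper gives only a typical depth and a minimum.

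A budding yeast centromere is a short defined sequence on which a single kinetochore assembles. The chromatin around it is rich in cohesin, the ring complex that holds sister chromatids together, and the origins beside it are known to fire early in S-phase. ORC recognises the A-element, which contains the 11 bp ARS consensus sequence, and with Cdc6 and Cdt1 it loads MCM2-7 onto DNA in G1-phase. In G2-phase ORC stays on origins, but loading is blocked by cyclin-dependent kinase.

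The listed A-elements of the named loci are printed below, because the A-element is the sequence that ORC recognises. These are the pericentromeric origins with the highest and lowest ORC places, the largest G1 to G2 differences and the shortest distances from a centromere. Each is the 33 bp window of R64 (sacCer3) around the listed A-element position, 5′ to 3′ on the strand of the A-element, and the capitals mark the best 11 bp match to the consensus within 10 bp of that position.
ARS208: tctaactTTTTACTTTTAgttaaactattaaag
ARS920: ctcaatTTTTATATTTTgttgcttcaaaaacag
ARS416: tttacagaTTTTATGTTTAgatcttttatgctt
ARS1114: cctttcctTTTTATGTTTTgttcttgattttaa
ARS1014: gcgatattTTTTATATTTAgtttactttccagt
ARS1622.7: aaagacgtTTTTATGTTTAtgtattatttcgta
ARS1622.5: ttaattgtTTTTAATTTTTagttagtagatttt
ARS1512: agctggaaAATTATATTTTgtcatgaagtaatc
ARS309: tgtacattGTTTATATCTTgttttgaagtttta
ARS1114.5: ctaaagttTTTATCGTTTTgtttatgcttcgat
ARS415: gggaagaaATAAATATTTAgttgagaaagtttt
ARS108: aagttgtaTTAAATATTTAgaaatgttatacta

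These windows lie at chrII:237846-237878 (minus strand) for ARS208, chrIX:357222-357254 (plus) for ARS920, chrIV:462582-462614 (minus) for ARS416, chrXI:448172-448204 (minus) for ARS1114, chrX:417369-417401 (minus) for ARS1014 and chrXVI:584390-584422 (minus) for ARS1622.7. The others lie at chrXVI:565114-565146 (plus) for ARS1622.5, chrXV:309238-309270 (minus) for ARS1512, chrIII:132038-132070 (plus) for ARS309, chrXI:457519-457551 (minus) for ARS1114.5, chrIV:435159-435191 (plus) for ARS415 and chrI:147524-147556 (minus) for ARS108. ARS920, ARS416, ARS1114, ARS1014 and ARS1622.7 matched the consensus at 11 of 11 bases. ARS208 and ARS1512 matched at 10, and ARS1622.5, ARS309, ARS1114.5, ARS415 and ARS108 at 9. A full match was not confined to named loci high in ORC place. ARS1622.7, one of the 3 lowest in ORC place among the 37 loci present in all 4 ORC lists, carried a full match like the 3 highest. Its first-listed ORC events lay at 80 and 104 bp from this A-element in G1 and at 196 and −2 bp in G2, with positive values downstream. At ARS1114.5 they lay at −32 and 146 bp in G1 and at 73 and 201 bp in G2. At the 3 highest loci they also lay partly or wholly outside the printed window, which ends 20 bp downstream. They lay at 35 and 25 bp in G1 and 26 and 45 bp in G2 at ARS416. At ARS1114 the values were −9 and 24 bp, and −13 and 27 bp, and at ARS1014 36 and 43 bp, and 27 and 27 bp. The printed window is thus often not where ORC was called, and whether this goes with place was not tested.

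Over all listed A-elements with a strand, a full match was found for 112 of 329 (34%). It was found for 17 of the 34 A-elements within 30 kb of a centromere and for 95 of 295 elsewhere, a difference of 17.8 percentage points (95% Newcombe interval 0.933 to 34.5). At 10 or more matching bases the shares were 24 of 34 and 218 of 295, and the interval of that difference included 0 (−20.7 to 10.3). All 34 pericentromeric A-elements matched at 9 or more bases, against 269 of 295 elsewhere, and this interval also included 0 (−1.70 to 12.6). Intervals here and below take loci, or events where shares of events are given, as independent. They were not adjusted for the number of shares compared.

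Every chromosome had at least 2 loci within 30 kb of its centromere. Chromosomes I and XVI had 4, chromosomes VI, X and XI had 3, and the others had 2. On 15 of the 16 chromosomes a locus lay on either side. The exception was chromosome VIII, where both loci lay to the right of the centromere and the nearest locus to the left, ARS805, was 41.3 kb away.

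**Figure D1:**
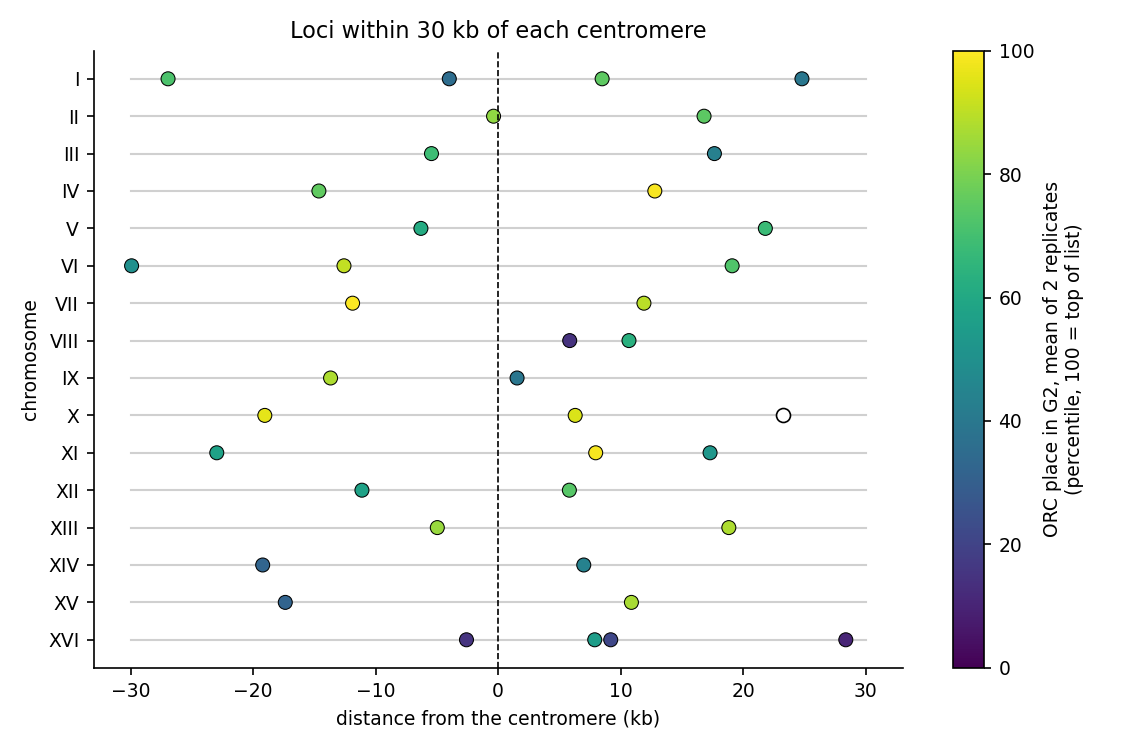
Positions of the 39 loci relative to the centromere of each chromosome (x axis, kb; y axis, chromosome), coloured by ORC place in G2-phase as the mean of 2 replicates, with the open circle a locus absent from 1 G2 list. Every chromosome has loci inside the limit, and only chromosome VIII has none to the left.

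The locus nearest to a centromere was 0.377 kb away on chromosome II (ARS208) and 12.8 kb away on chromosome IV (ARS416), and these were the extremes over the 16 chromosomes, with a median of 6.06 kb. The outermost ARS208 event lay 108 bp from the annotated edge of the centromere. The span between the loci on either side of a centromere ran from 10.45 kb on chromosome XVI to 47.2 kb on chromosome VIII.

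Loci were denser within 30 kb of a centromere than elsewhere. The density was 4.06 loci per 100 kb within 30 kb of a centromere and 2.82 in the rest of the genome. The ratio was 1.45 as the geometric mean over lists (SD 0.0485, n = 6), ranged from 1.39 to 1.54, and was above 1 in 6 of 6 lists (exact sign-flip test over lists, two-sided, p = 0.03125, the smallest p that 6 lists can give, and 0.141 after Benjamini-Hochberg adjustment over 9 tests). After this adjustment none of the 9 tests passed 0.05, and without it density and place did. The 6 lists hold largely the same loci, so this test measures how stable a difference is over libraries and not over loci. By chromosome, the density was higher within 30 kb on 13 of 16, with ratios from 0.713 on chromosome III to 2.37 on chromosome XVI.

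**Figure D2:**
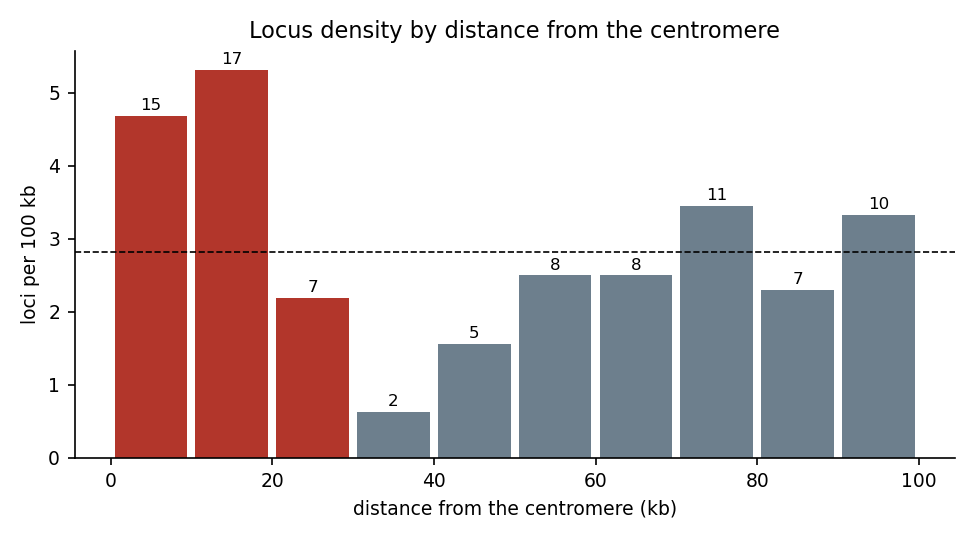
Loci per 100 kb (y axis) in 10 kb bins of distance from the centromere (x axis, kb), with the number of loci above each bar, bins within 30 kb in red and the density of all other loci as the dashed line. The first bins hold 15 and 17 loci, and the bin from 30 to 40 kb holds 2.

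The density was not even inside the limit. It was 4.69 loci per 100 kb in the first 10 kb and 5.31 from 10 to 20 kb, and 2.19 from 20 to 30 kb, where 7 loci lay. It was lowest from 30 to 40 kb, at 0.625, and between 1.56 and 3.45 in each bin from there to 100 kb. With the limit at 20 kb the ratio to the rest was 1.81. Wider limits, which would take in the sparse bins from 30 to 50 kb (0.625 and 1.56 loci per 100 kb), were not tried.

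Detection was nearly complete. An event was present in all 6 lists at 37 of the 39 pericentromeric loci, against 91.2% of all loci and 284 of 313 elsewhere. The exceptions were 2 loci with places no higher than 26.0 in any list that held them. The locus between TCD1, which encodes a tRNA-modifying enzyme, and NEM1, which encodes a phosphatase of lipid synthesis, lay 5.84 kb from the centromere of chromosome VIII and was absent from ORC in G1 replicate 2. ARS1017, 23.3 kb from the centromere of chromosome X, was absent from the second replicates of ORC in G1 and in G2. Its places in the other lists were 9.14 and 23.8 for MCM2-7, 0.573 for ORC in G1 and 13.75 for ORC in G2.

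Place is the position of a locus's first-listed event among the loci of a list, as a percentile with 100 for the locus listed first. It was used instead of the score because the score reached its cap of 1000 at many events. The cap was reached by 59.1% and 51.9% of MCM2-7 events, 29.4% and 35.4% of ORC events in G1, and 11% and 6.97% of ORC events in G2. For MCM2-7 the first-listed event was at the cap at 38 of 39 pericentromeric loci and 293 of 312 others in replicate 1. In replicate 2 it was at the cap at 36 of 39 and 280 of 311. For ORC in G1 the counts were 27 of 39 and 187 of 311, and 22 of 37 and 169 of 309. Among these loci the scores are tied and only list order sets place. Whether that order follows strength was not tested. Place compares loci within a list and says nothing of how much protein was bound in one list against another.

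The pericentromeric loci stood above the rest in median place in every list, most of all for ORC in G2-phase. For ORC in G2 the medians were 65.9 against 47.6 in replicate 1 and 64.4 against 48.5 in replicate 2. For ORC in G1 they were 61.0 against 48.7 and 54.5 against 49.0. For MCM2-7 they were 54.9 against 49.4 and 61.3 against 48.7. The mean difference was 11.7 percentile points (SD 5.31, n = 6 lists, higher in 6 of 6, exact sign-flip test, two-sided, p = 0.03125, adjusted 0.141). When loci were ranked by their highest score instead, all loci at the cap were tied, and the near and other medians fell on the same tied value in the 4 lists of G1-phase. The difference was then 0 in those 4 lists and 35.4 and 15.9 in the G2 lists of ORC, with a mean of 8.54 (exact sign-flip test over 6 lists, two-sided, p = 0.5). With 4 differences of 0 no smaller p was possible, so this test could not decide. In ORC in G2 replicate 1 the near median, 82.8, was also the tied value of the cap, against 47.4 for the others. The first-listed event was at the cap there at 21 of 39 pericentromeric loci and 100 of 311 others. The 35.4 and the 18.3 by list order are thus not comparable as sizes.

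**Figure D3:**
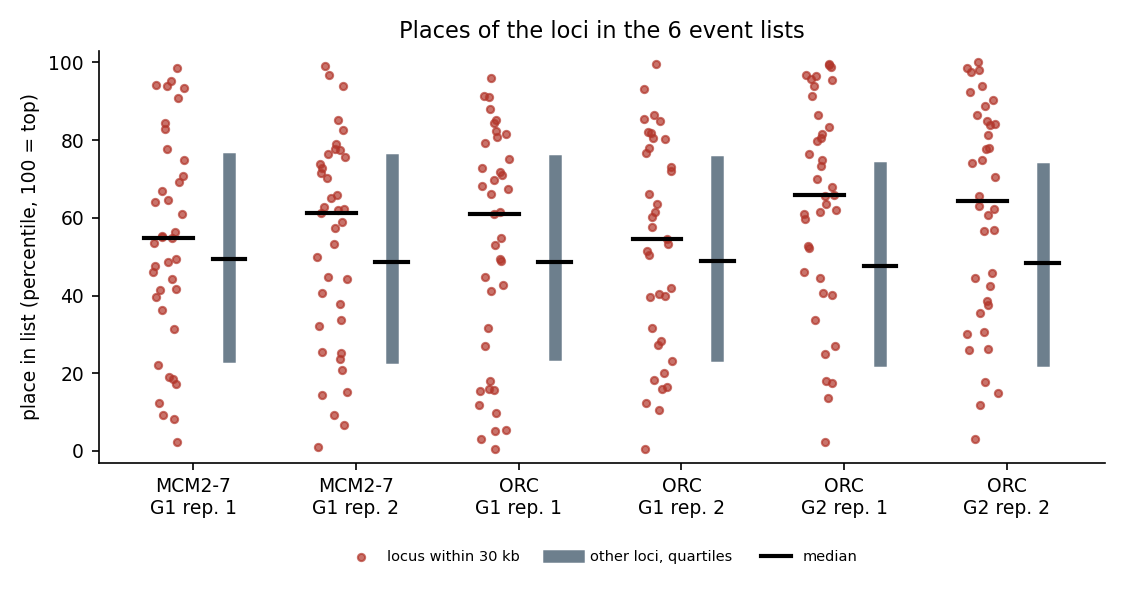
Place of each pericentromeric locus (red points, y axis, percentile) in each of the 6 lists (x axis), with its median, beside the quartiles (grey bar) and median of all other loci. The medians of the red points lie above those of the other loci in each list, by 5.43 to 18.3 percentile points, and the points span nearly the whole range.

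At the upper end of the lists the difference was seen for ORC in G2. A place of 75 or above was reached by 25.1% of all loci in each list except ORC in G2 replicate 2, where it was 25%. In the G2 lists it was reached by 15 of 39 pericentromeric loci against 73 of 311 elsewhere (difference 15.0 percentage points, 95% Newcombe interval 0.521 to 31.2) and by 15 of 38 against 66 of 286 (16.4 points, 1.57 to 32.8). In the G1 lists of ORC the counts were 11 of 39 and 11 of 37, and in the MCM2-7 lists 9 of 39 and 10 of 39, with intervals of the difference that included 0. Over the 6 lists the difference was 6.38 points (SD 7.65, exact sign-flip test, two-sided, p = 0.0938, adjusted 0.211).

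Fewer loci reached the top 25% in both replicates. They were 11 of 38 pericentromeric loci for ORC in G2 (19.2% of all loci), 7 of 37 for ORC in G1 (15.7% of all) and 7 of 39 for MCM2-7 (17.4% of all). Each interval of the difference from the other loci included 0. For ORC in G2 it excluded 0 with the limit at 20 kb (2.09 to 34.6 points), with joining at 250 bp (0.343 to 30.1) and with ranking by highest score (0.273 to 30.7). It still included 0 for ORC in G2 with joining at 1000 bp (−1.34 to 28.4). The same held with other loci at least 20 kb from a chromosome end (−2.67 to 26.8). At the level of single events, 18.1% of pericentromeric ORC events in G2 replicate 1 were at the score cap (95% Wilson interval 13.8 to 23.4) against 10.1% elsewhere (8.81 to 11.5), and in replicate 2 it was 11.4% (6.66 to 18.9) against 6.35% (4.82 to 8.32). These intervals count events, several of which share a locus, and are no test over loci or lists. Over all lists the difference at the cap was 3.19 points (SD 3.04, higher in 5 of 6, exact sign-flip test, two-sided, p = 0.0625).

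Inside the limit, the median ORC places were highest at 10 to 20 kb from the centromere. The 17 loci there had median places of 79.7 and 81.4 for ORC in G2, and 71.9 and 78.0 for ORC in G1. The 15 loci within 10 kb had 63.6 and 56.7 in G2, and 61.0 and 41.0 in G1. The 7 loci from 20 to 30 kb had 52.7 and 50.5 in G2. High medians were also found outside the limit, at 71.35 and 80.2 in G2 for the 5 loci from 40 to 50 kb and at 75.9 and 68.3 for the 8 loci from 50 to 60 kb. These bins are a description and were not tested against each other.

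The locus next to a centromere was not uniformly high in place. ARS208 spans chrII:237707-238099 between ECM15 and NTH2, a trehalase gene, and 43 events were listed there, the most of any pericentromeric locus. Its ORC places were 80.5 and 86.4 in G2 and 61.0 and 53.3 in G1, and its MCM2-7 places 39.7 and 59.0. Both ORC places in G1 lay below both in G2.

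ARS920, the other locus within 2 kb, spans chrIX:357106-357442, 1.54 kb from the centromere, between SGN1 and MPH1, which encodes a DNA repair helicase. Its ORC places were 63.6 and 14.9 in G2 and 15.8 and 20 in G1, and its MCM2-7 places 46.0 and 14.3. The replicates in G2 differed by more than G1 differed from G2, so no order of the phases can be read here.

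Among the 37 pericentromeric loci present in all 4 ORC lists, the highest mean ORC places were those of ARS416, ARS1114 and ARS1014. ARS416 is the origin also known as ARS1, between TRP1, a tryptophan synthesis gene, and GAL3, the galactose sensor, 12.8 kb from the centromere of chromosome IV. Its ORC places were 99.7 and 98.5 in G2 and 85.1 and 99.7 in G1, and its MCM2-7 places 94.3 and 82.5. Its first-listed positions lay within 20 bp of each other over all 6 lists, the narrowest range among these loci.

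ARS1114 lies 7.96 kb from the centromere of chromosome XI, between ECM9 and YKR005C. It had ORC places of 99.4 and 98.1 in G2 and 96.0 and 86.4 in G1. Its MCM2-7 places, 54.9 and 75.6, were lower than each of its ORC places. ARS1014, 19.0 kb from the centromere of chromosome X beside NOP9, a ribosome assembly gene, had ORC places of 94.0 and 97.5 in G2 and 72.8 and 93.0 in G1, and MCM2-7 places of 93.4 and 71.6.

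Of the same 37 loci, the 3 lowest in mean ORC place were on chromosome XVI. ARS1017 and the TCD1-NEM1 locus, each absent from at least 1 ORC list, were not ranked, and the latter had ORC places of 2.29 and 26.0 in G2 and 5.16 in G1 replicate 1. ARS1622.5, 9.18 kb from the centromere beside HAL1, a salt tolerance gene, had ORC places of 24.9 and 17.65 in G2 and 3.15 and 0.580 in G1, and MCM2-7 places of 2.29 and 1.15. It was low in every list. It lies beside ARS1622, 7.88 kb from the centromere, whose mean ORC place was 55.5.

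ARS1622.7, at 28.4 kb between MRX21 and CMR3, had ORC places of 17.5 and 3.10 in G2 and 9.74 and 18.3 in G1, and MCM2-7 places of 17.1 and 25.5. The locus between ULA1 and SNF8, which encodes a subunit of the ESCRT-II complex, lay 2.59 kb from the centromere at chrXVI:553174-553550. It had ORC places of 18.05 and 11.8 in G2 and 16.05 and 27.25 in G1, and MCM2-7 places of 18.6 and 49.9. No A-element was listed for it.

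ORC and MCM2-7 ordered the pericentromeric loci differently. Across these loci, Spearman's rho of the places was 0.817 between the ORC replicates in G2 (n = 38), 0.710 in G1 (n = 37) and 0.807 between the MCM2-7 replicates (n = 39). It ranged from 0.2108 to 0.4504 between MCM2-7 and ORC in G1. The corresponding values over the other loci were 0.765, 0.762 and 0.845 between replicates, and 0.333 to 0.403 between MCM2-7 and ORC in G1. These are descriptions across loci of shared libraries. Named after their values had been seen, ARS1513 on chromosome XV had a mean ORC place of 86.7 and an MCM2-7 place of 18.75, and ARS110 on chromosome I had 33.4 and 90.1.

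Between G2- and G1-phase the ORC place of the pericentromeric loci moved down more often than up. A place lower in G1 than in G2 under both replicate numbers was found at 16 of 37 loci, against 27.7% of all loci and 73 of 284 elsewhere (difference 17.5 percentage points, 95% Newcombe interval 2.00 to 34.1). A higher place under both was found at 3 of 37, against 30.8% of all loci and 96 of 284 elsewhere (−25.7 points, −33.5 to −11.5). The other 18 went opposite ways or were tied. The labels do not say that the replicate numbers pair the lists. Without the numbers, both G1 places lay below both G2 places at 13 of 37 loci (20.6% of all loci) and above them at 2 of 37 (25.2% of all).

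The pericentromeric loci also started from a higher place in G2, as given above. Among loci in the upper 50% of both G2 lists, a restriction added after the data had been seen, ORC place was lower in G1 at 10 of 23 pericentromeric loci and at 47 of 111 others (difference 1.14 points, −19.0 to 22.7). It was higher at 1 of 23 and at 23 of 111 (−16.4 points, −25.6 to 1.49). Neither interval excluded 0. The near-minus-rest difference in median place was −8.23 percentile points in G1 relative to G2 (exact permutation test over 4 lists, two-sided, p = 0.333, the smallest p that 2 against 2 can give). It was −4.82 without ORC in G1 replicate 2 and −11.6 without ORC in G1 replicate 1. The median change in place over the pericentromeric loci was −12.2 percentile points, against 1.52 over the others.

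**Figure D4:**
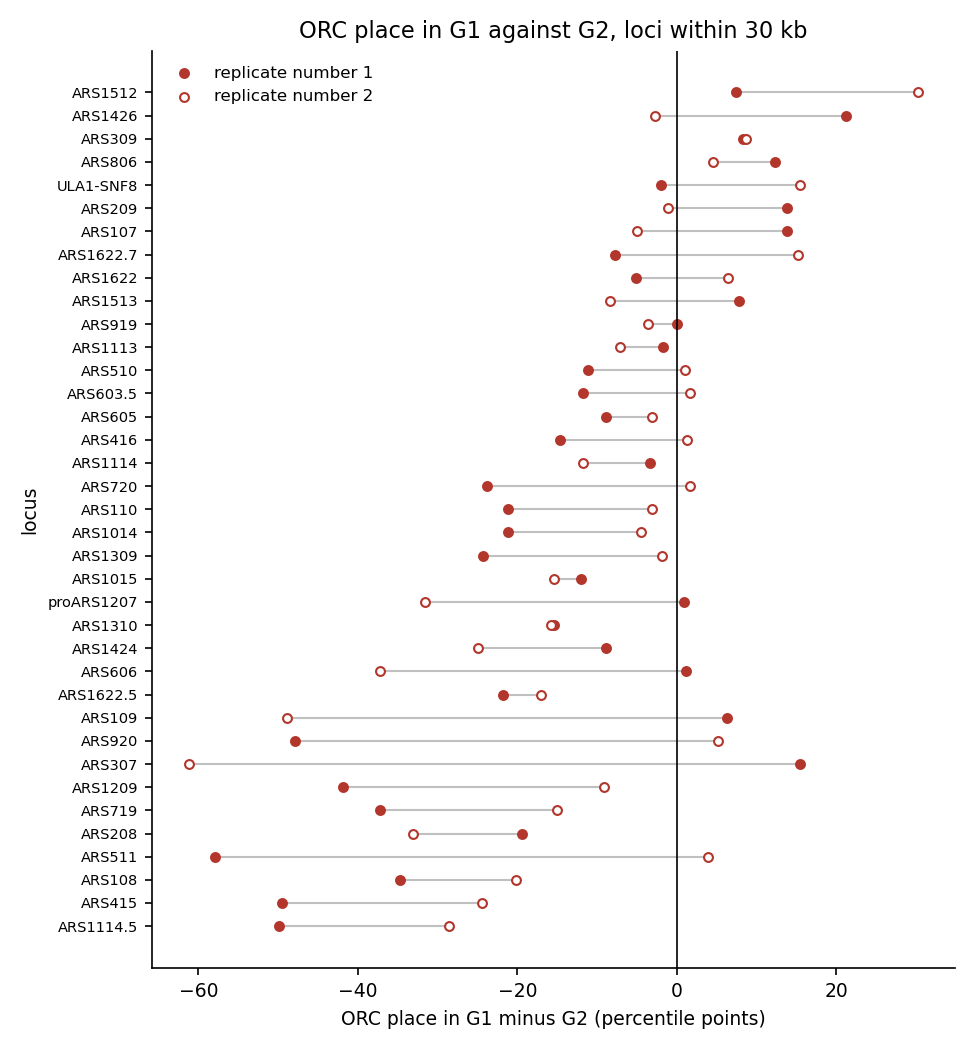
ORC place in G1 minus G2 (x axis, percentile points) at the 37 pericentromeric loci present in all 4 ORC lists (y axis, ordered by the mean), for replicate number 1 (filled) and 2 (open). At 16 loci both points lie left of 0, and at ARS1512, ARS309 and ARS806 both lie right of it.

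The 3 loci that fell most were ARS1114.5, ARS415 and ARS108. ARS1114.5, 17.3 kb from the centromere of chromosome XI beside FOX2, a gene of peroxisomal fatty acid breakdown, had ORC places of 61.6 and 44.6 in G2 and 11.75 and 15.9 in G1. Its MCM2-7 places were 48.6 and 72.8. ARS415, 14.6 kb from the centromere of chromosome IV, had 76.5 and 74.9 in G2 and 26.9 and 50.4 in G1, with MCM2-7 places of 49.4 and 32.1.

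ARS108 lies inside the coding sequence of VPS8, which encodes a subunit of an endosomal tethering complex, 3.99 kb from the centromere of chromosome I. Its ORC places were 40.1 and 30.65 in G2 and 5.44 and 10.4 in G1, and its MCM2-7 places 41.4 and 20.9. At each of these loci the G1 and G2 places did not overlap. The other 13 that were lower under both numbers were ARS110, ARS208, ARS605, ARS719, ARS1014, ARS1015, ARS1113, ARS1114, ARS1209, ARS1309, ARS1310, ARS1424 and ARS1622.5.

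ARS1512, ARS309 and ARS806 were the 3 loci with a higher place in G1. ARS1512, 17.4 kb from the centromere of chromosome XV between RCL1 and MDM12, had 33.8 and 30.0 in G2 and 41.3 and 60.3 in G1. ARS309, 17.6 kb from the centromere of chromosome III between RVS161, an endocytosis gene, and ADY2, an acetate transporter gene, had 40.7 and 45.8 in G2 and 49.0 and 54.5 in G1. ARS806, 10.7 kb from the centromere of chromosome VIII beside STP2, a transcription factor of amino acid uptake, had 69.9 and 57.0 in G2 and 82.2 and 61.45 in G1. The groups did not overlap at ARS1512 and ARS309, and they overlapped at ARS806.

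The replicate numbers disagreed strongly at some loci, chosen here after their values had been seen. The difference in place at ARS307 was 15.5 percentile points under number 1 and −61.2 under number 2. At ARS511 it was −57.9 and 3.86.

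The pericentromeric loci differed from the rest in the genes around them. Only 4 of 39 lay between convergent genes, against 31.2% of all loci and 33.9% of the 313 elsewhere (difference −23.6 percentage points, 95% Newcombe interval −31.8 to −9.37). Between genes transcribed in the same direction lay 27 of 39, against 45.2% of all loci and 132 of 313 elsewhere (27.1 points, 10.5 to 40.4). Between divergent genes lay 5 of 39, against 16.2% of all loci and 52 of 313 elsewhere, and this interval included 0 (−12.3 to 10.6). The 4 convergent positions were those of ARS109, ARS510, ARS1512 and the ULA1-SNF8 locus.

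The spaces between genes did not differ in the same way. Of 540 intergenic spaces within 30 kb of a centromere, 28.0% were convergent, against 25.6% of 5698 elsewhere. Convergent spaces made up 17.2% of the intergenic length near centromeres and 15.0% elsewhere. The convergent share was thus slightly higher near centromeres for the spaces and lower for the loci.

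**Figure D5:**
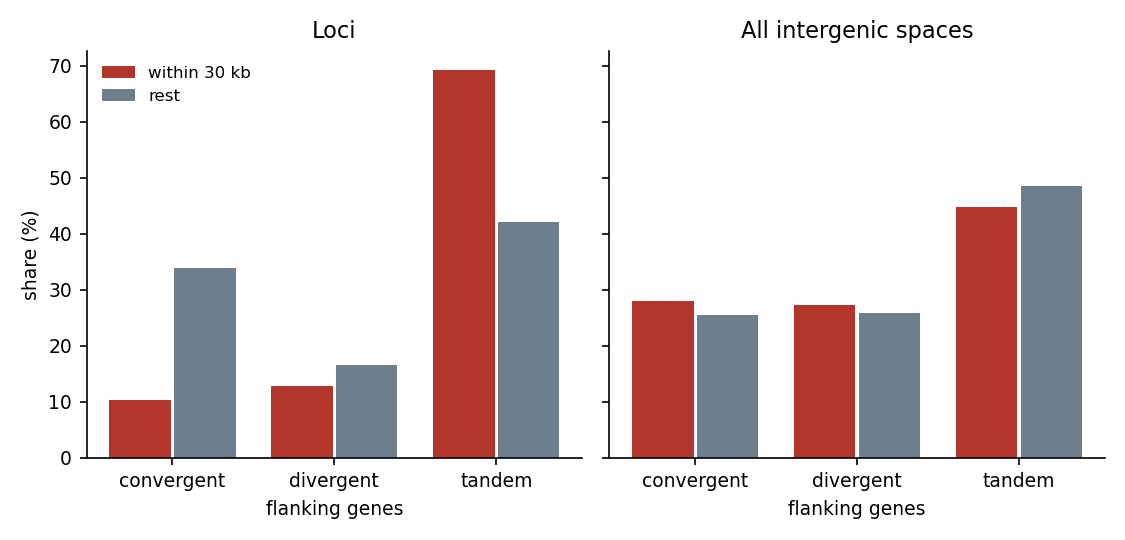
Share (y axis, %) of loci (left) and of all intergenic spaces (right) lying between convergent, divergent and tandem genes, within 30 kb of a centromere (red) and elsewhere (grey). Convergent positions make up 10.3% of the pericentromeric loci and 33.9% of the others, and 28.0% and 25.6% of the spaces.

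Of the 39 loci, 36 were intergenic, against 94% of all loci. The other 3 lay in coding sequence, namely ARS108 in VPS8, ARS605 in MSH4, a meiotic crossover gene, and proARS1207 in SPO75, a sporulation gene, which neighbours ORC3. The strand of the A-element pointed toward the centromere at 15 of 34 loci, against 46.9% of all loci and 135 of 286 elsewhere, so no common orientation was seen.

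Over the 6 lists, no difference from other origins passed the test in events per locus, detection, replicate sharing or distance from the A-element. A pericentromeric locus had a mean of 5.72 and 4.69 MCM2-7 events, 3.33 and 3.59 ORC events in G1, and 6.23 and 2.76 in G2. The difference from the other loci was −0.0832 events (SD 0.218, exact sign-flip test over 6 lists, two-sided, p = 0.438). The share of loci detected differed by 0.741 percentage points (SD 3.15, n = 6 lists, exact sign-flip test, p = 0.531).

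Events with a partner in the other replicate within 50 bp made up 87% and 91.9% of all MCM2-7 events, 77.8% and 74.7% of ORC events in G1, and 60.7% and 87.5% in G2. The pericentromeric shares were 84.3% and 91.8%, 76.2% and 78.9%, and 68.7% and 85.7%. Their difference from the other events was 1.14 points over 6 lists (SD 4.77, exact sign-flip test, two-sided, p = 0.688). For ORC in G2 replicate 1 alone the intervals of both shares did not overlap, at 68.7% near centromeres (95% Wilson interval 62.6 to 74.2) against 59.6% elsewhere (57.4 to 61.8), while in ORC in G2 replicate 2 it was 85.7% against 87.7%. Here too the intervals count events that share loci, and are no test over loci or lists.

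The first-listed ORC event lay a median of 35 bp from the A-element in both G1 lists and 30 bp in both G2 lists. For MCM2-7 it lay 44 and 41 bp away. The difference from the other loci was −0.333 bp over 6 lists (SD 4.96, exact sign-flip test, two-sided, p = 0.938). On the strand of the A-element, the first-listed MCM2-7 event lay downstream at 28 and 27 of 34 pericentromeric loci, against 69.9% and 69.8% of all loci. That of ORC lay downstream at 26 and 27 of 34 in G1, against 73.7% and 67.3% of all loci, and at 26 and 25 of 34 in G2, against 71.7% and 69.1%. Most first-listed events were thus downstream at all origins, and the pericentromeric counts were not tested against the others. The first-listed MCM2-7 and ORC events in G1 were a median of 37 and 34 bp apart under replicate numbers 1 and 2, against 39 and 48 bp elsewhere, which was not tested. Over all lists, the first-listed positions of a locus spanned a median of 81 bp (n = 37) near centromeres and 114.5 bp (n = 284) elsewhere, given as a description.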

How the data were processed

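The authors aligned reads with Bowtie2 (version 2.3.5, per the labels) to sacCer3 (R64) and called events with ChExMix on each replicate. Each deposited list gives a position and a whole-number score per event, written by the authors' caller, capped at 1000 and not normalized between lists. The lists run mostly but not strictly from high to low score, with 30 to 301 steps up per list. Distances were taken from the chromosome's centromere in kb, and gene positions, centromeres and sequences from the RefSeq annotation of R64, which is the sequence of S288C and not of W303. Of the 39 loci, 35 were named from the study's list of A-elements (within 1000 bp), 2 from annotated origins and 2 from flanking genes. Distances to an A-element were counted up to 400 bp. tRNA and other noncoding genes counted as genes. Of the 332 listed A-elements, 329 had a strand.

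The members and lists were chosen with earlier results of these data known. Each list gave 1 value for the near and 1 for the other loci, tested by exact sign-flip tests over the 6 lists and exact permutation of the ORC lists, with a threshold of 0.05 and Benjamini-Hochberg adjustment over 9 tests. Shares have 95% Wilson intervals and differences of shares Newcombe intervals, which cover counting error only. They count loci, except that shares of events count events, several of which share a locus. Named loci are those within 2 kb of a centromere, the 3 highest and 3 lowest in mean ORC place, the 3 that rose and fell most under both replicate numbers, those in fewer than 3 lists (none) and chromosomes without a near locus (none). Others are said to have been chosen later. Alternatives were a limit of 20 kb, other loci at least 20 kb from a chromosome end, joining at 250 and 1000 bp, events at or above the median score, ranking by highest score, sharing within 25 bp, the nearest event or pair, pairing by replicate number and each list left out. The shares of loci by ORC change, top 25% of both lists and gene arrangement were not among the planned results, and neither were the consensus matches. The alternatives to these shares of loci were added after the data had been seen. The measures of events and place were checked on simulated lists with known differences. Scripting used Python 3.11.15 and the packages SciPy 1.17.1 (intervals), pandas 2.3.3, NumPy 2.4.6, and Matplotlib 3.10.9 for figures.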

Additional observations from a re-analysis of the deposited data

Results flagged for a closer look

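The distance of the first-listed event from the A-element, pericentromeric minus other loci, went opposite ways between conditions. It was 4 and 7 bp for ORC in G1, −1 and −6.5 bp for ORC in G2 and −3 and −2.5 bp for MCM2-7. The mean difference between conditions was 9.25 bp for ORC in G1 against G2 and −8.25 bp for MCM2-7 against ORC in G1. Events per locus also went opposite ways for ORC, with −0.0107 and −0.438 in G1 and 0.00890 and 0.1198 in G2, a mean difference of −0.289. An exact permutation test of 2 lists against 2, two-sided, gave p = 0.333 for each of the 3, which is the smallest p it can give.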

How the results depend on the processing

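Of 72 values recomputed under another setting with both replicates kept, 61 stayed on their side of the threshold or within the spread over lists. With the limit at 20 kb the difference in events at the score cap was 5.29 points (exact sign-flip test, p = 0.03125) and that in the top 25% of both G2 lists 16.85 points, and their tests or intervals then passed. With other loci at least 20 kb from a chromosome end, the cap difference was 3.59 and the top 25% difference 8.003 points (each p = 0.03125, exact sign-flip test over lists), while the difference in loci with a lower ORC place in G1 was 14.5 points, and its interval included 0. Ranking by highest score gave 8.54 for place in the list (exact sign-flip test, p = 0.5, the smallest p that the ties allowed) and −25.6 for the change of that difference from G2 to G1. In both G1 lists of ORC the difference was then 0, because both medians fell on the tied value of the cap, so the −25.6 is no larger phase change. The same ranking gave 14.2 points for the top 25% of both G2 lists, which joining at 250 bp put at 13.75, and under both settings this interval excluded 0. Joining at 1000 bp gave 11.8 points, with an interval that included 0. Restricted to loci in the upper 50% of both G2 lists, the shares with a higher and a lower place in G1 differed by −16.4 and 1.14 points. Apart from these ties, the causes were not tested.

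Leaving out each list in turn gave density ratios of 1.44 to 1.47 and place differences of 10.4 to 12.9, and the change of the place difference from G2 to G1 ran from −11.6 to −4.82. With 5 lists the smallest p is 0.0625, so these are values without a test. With a replicate block, pairing the ORC lists by number, the change from G2 to G1 was −8.23 (exact sign-flip test, p = 0.5), the smallest p of 2 pairs. Deviations of same-numbered ORC lists from their group means had a correlation of −0.00118 across 321 loci, so same-numbered lists did not reorder loci alike. Places are ranks within a list, so a batch that shifts a whole list could not show here.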
